A study of Homo sapiens with 6 samples.

Results

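The genes of the mitochondrial genome were the 37 rows of the deposited count table whose chromosome is MT, out of 58735 rows. They comprised the 13 mRNAs that encode proteins, both ribosomal RNAs (rRNAs) and the 22 transfer RNAs (tRNAs). They were read in Het1A cells, an established line of human oesophageal epithelium, immortalised with the SV40 T antigen that both groups therefore carry. The 3 bile acid libraries came from cells treated for 10 min a day on 5 days, at pH 4.0, with glycocholic, taurocholic, glycodeoxycholic, glycochenodeoxycholic and deoxycholic acid mixed to 100 µM. The 3 control libraries came from cells given 0.1% DMSO, and the labels do not say whether that medium was acidified. Cells of both groups were held in 1% serum from 48 h before exposure, and their RNA was collected 24 h after the final treatment. The labels call the libraries biological replicates without saying how the cultures were kept apart, so p-values measure the spread between these libraries. Het1A is 1 line, so the spread does not cover other cells.

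Human mitochondria hold their own small circular DNA. Long transcripts are read from both of its strands and are cut into single RNAs, largely at the tRNAs that lie between the other genes. The mRNAs encode subunits of respiratory complexes I, III and IV and of ATP synthase, and are translated on mitochondrial ribosomes built around the 2 rRNAs. Every protein needed to transcribe, cut and translate these RNAs, and most subunits of the complexes, come from nuclear genes.

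The coordinates of all 37 rows equal those of GENCODE 29 on GRCh38. Taken by coordinate from MT-TF to MT-TP, the genes make 36 neighbouring pairs, of which 20 abut and 5 overlap. The widest gap among these pairs is 31 bases, between MT-TN and MT-TC. The stretch that closes the circle, from MT-TP (ending at base 16023) to MT-TF (starting at base 577), is not among them. It holds none of the 37 genes. Because the genes are so tightly packed, the sequences at their borders bear on which row a read is counted in. They were read from the GENCODE 29 transcripts and are shown 5′ to 3′ in the sense of each RNA. MT-ND4L and MT-ND4 share 7 bases and MT-ATP8 and MT-ATP6 share 46 bases, in capitals in these ends and starts.
MT-ND4L, end, plus strand, chrM:10707-10766: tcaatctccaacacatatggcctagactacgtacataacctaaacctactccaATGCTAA
MT-ND4, start, plus strand, chrM:10760-10819: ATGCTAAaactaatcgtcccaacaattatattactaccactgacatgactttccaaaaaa
MT-ATP8, end, plus strand, chrM:8513-8572: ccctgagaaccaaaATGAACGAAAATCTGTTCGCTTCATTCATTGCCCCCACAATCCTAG
MT-ATP6, start, plus strand, chrM:8527-8586: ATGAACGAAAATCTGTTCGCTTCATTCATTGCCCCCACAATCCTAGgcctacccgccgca

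The start codon of the second gene lies inside the first in both pairs. The sources used here do not say how a read over 2 genes was counted, nor whether reads were counted by strand.

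Of the 13 mRNA genes, 6 have a length that is no multiple of 3, since their last codon is completed only when adenines are added to the RNA. The last bases of MT-CO3 and MT-ND1 show such ends, and MT-CO2 a complete stop codon, with the last codon or what there is of it in capitals.
MT-CO3, plus strand, chrM:9961-9990: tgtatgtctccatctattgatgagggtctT
MT-ND1, plus strand, chrM:4233-4262: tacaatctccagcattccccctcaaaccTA
MT-CO2, plus strand, chrM:8240-8269: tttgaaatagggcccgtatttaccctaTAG

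The tRNAs for asparagine (MT-TN), cysteine (MT-TC) and alanine (MT-TA) are neighbours on the minus strand. They are shown because the first pair led the tRNA counts while the third was almost never counted; no base is marked in them.
MT-TN, minus strand, chrM:5657-5729: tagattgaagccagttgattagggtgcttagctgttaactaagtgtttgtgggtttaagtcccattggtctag
MT-TC, minus strand, chrM:5761-5826: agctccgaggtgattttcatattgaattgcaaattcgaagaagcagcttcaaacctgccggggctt
MT-TA, minus strand, chrM:5587-5655: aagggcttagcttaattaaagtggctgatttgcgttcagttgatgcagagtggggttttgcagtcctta

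The libraries held 21006677 to 28497721 counts in all, of which 62114 to 179970 fell on the mitochondrial genes. Control 2 stood apart over all genes: it lay at 145 on the first principal component, which held 73.1% of the variance, while the other 5 libraries lay between -43.97 and -6.89, and it had 19101 genes with a count against 24174 to 25337. Of the markers of basal squamous epithelium, KRT17 (on average 105 and 82.4 CPM, counts scaled by library size, in control and bile acid libraries), ITGB4, CDH3 and LAMA3 were present, whereas KRT5 averaged 0.18 and 0.13 CPM and KRT14, KRT15 and TP63 were at or near 0. All 6 markers of differentiated squamous epithelium had 0 counts, so the squamous label was only partly met. Of markers of simple or columnar epithelium, KRT8, KRT18, KRT19, EPCAM, CDH1 and MUC1 were expressed, while CDX2 and VIL1 were at or near 0. Of markers of mesenchyme, VIM, COL1A1, PDGFRB and CDH2 were expressed, while COL1A2, COL3A1, DCN and LUM were at or near 0. Summed leukocyte markers reached at most 0.107 CPM and endothelial markers 0.585 CPM. Each mitochondrial result below is also given without control 2 where that library decides it.

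No mitochondrial gene passed the test for a difference between bile acid and control libraries. Of the 37 genes, 20 had enough counts to be tested, namely the 13 mRNAs, the 2 rRNAs and 5 tRNAs. In the quasi-likelihood test of edgeR, with p adjusted over all 17743 tested genes, 0 of the 20 had an adjusted p under 0.05, with a background of 0% called. At an unadjusted p under 0.05 there were likewise 0 of the 20, against 3.31% of all tested genes. DESeq2 called 0 of them too, against a background of 0.0451%, with 2 at an unadjusted p under 0.05, against 3.15%. The fold changes had an order by kind of RNA all the same: all 13 mRNAs had a positive log2 fold change (median 0.73, adjusted p 0.911 to 0.92), against 48.8% of tested genes with a positive one and an all-gene median of -0.01. Both rRNAs had a negative one. The mRNAs are cut from shared long transcripts and were read in the same libraries, so the 13 are no separate observations.

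Mitochondrial RNA made up a small share of each library. It took 0.386%, 0.296% and 0.388% of the counts in controls 1, 2 and 3, and 0.648%, 0.240% and 0.577% in bile acid libraries 1, 2 and 3. Bile acid 1 and 3 lay above every control and bile acid 2 below every control, so the groups overlapped. The means were 0.356% ± 0.0526 and 0.488% ± 0.218 (SD, n = 3 each, exact two-sided permutation p = 0.4, Benjamini-Hochberg 0.7 over 7 shares and ratios). In RNA from a whole culture, fewer cells that hold an RNA and less of it per cell cannot be told apart, and a share also moves with the nuclear RNA beside it. With 3 libraries against 3 the smallest p such a test can give is 0.10.

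The mRNAs made up most of these counts and set their pattern. The mRNAs took 0.285%, 0.1995% and 0.312% of the counts in the controls and 0.563%, 0.199% and 0.502% in the bile acid libraries. Here again bile acid 1 and 3 were the highest, while bile acid 2 was close to the lowest control. The rRNAs took 0.0951%, 0.0876% and 0.0714% in the controls and 0.0801%, 0.0363% and 0.0694% in the bile acid libraries. Only bile acid 1 reached into the range of the controls. Neither difference passed the test (exact permutation p = 0.4 and 0.2, n = 3 each).

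Of the 7 shares and ratios, 1 kept the groups apart, the balance of rRNA and mRNA. The ratio of rRNA to mRNA counts was 0.333, 0.439 and 0.229 in the controls and 0.142, 0.182 and 0.138 in the bile acid libraries. The groups did not overlap: every bile acid library lay below the lowest control, bile acid 2 included. The means were 0.334 ± 0.105 and 0.154 ± 0.0244 (SD, n = 3 each), a difference of -0.179. The exact permutation p was 0.1, the smallest that this design can give, and 0.7 after adjustment over the 7 measures, so the difference did not pass. It was negative under every alternative setting that was run, from -0.232 to -0.113.

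**Figure D1:**
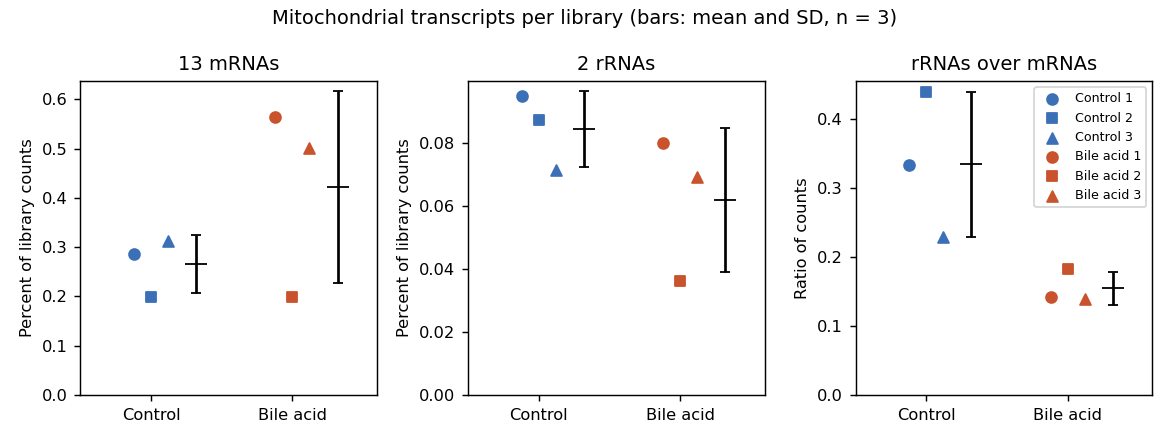
Percent of all counts on mitochondrial mRNAs (left) and rRNAs (middle), and the ratio of rRNA to mRNA counts (right), 1 point per library, with the mean and SD of each group (n = 3) as a bar. The mRNA shares overlap, while the ratio lies between 0.138 and 0.182 in the bile acid libraries and between 0.229 and 0.439 in the controls.

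The ratio was also read gene by gene, a comparison chosen after its values were seen. MT-RNR2, the rRNA of the large ribosomal subunit, stood at 1.17, 1.37 and 0.778 counts per count of MT-CO1 in the controls and at 0.517, 0.520 and 0.434 in the bile acid libraries. Over 12 of the 13 mRNAs the ratio was lower in all bile acid libraries than in all controls, and among 16766 tested nuclear genes taken in place of the mRNA the same was true of 11.8%. The exception was MT-ND4L, where bile acid 2, at 9.90, lay above controls 1 and 3, at 9.72 and 5.96. For MT-RNR1, the rRNA of the small subunit, only 3 of the 13 mRNAs showed it, MT-CO1, MT-CO2 and MT-CO3, against 25.9% of nuclear genes. These ratios all come from the same 6 libraries and share their numerators.

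Neither rRNA differed beyond its spread. MT-RNR2 had 779, 806 and 582 CPM, scaled by TMM (edgeR's factors between libraries), in the controls and 704, 295 and 602 in the bile acid libraries. Bile acid 2 was far below the rest and the other 2 lay within the control range, for a log2 fold change of -0.44 (SE 0.34). Leaving out bile acid 2 gave -0.13, and leaving out bile acid 1 gave -0.68. MT-RNR1 had 118, 224 and 86.9 CPM in the controls and 90.2, 63.1 and 86.2 in the bile acid libraries. Its log2 fold change of -0.84 (SE 0.36, unadjusted p = 0.051, adjusted p = 0.911, edgeR) was -0.35 without control 2. The count of MT-RNR1 in percent of MT-RNR2 was 15.1%, 27.8% and 14.9% in the controls and 12.8%, 21.4% and 14.3% in the bile acid libraries, and the libraries numbered 2 were the highest of each group (exact permutation p = 0.5 between groups, n = 3 each). This difference was positive, at 1.16 percentage points, without control 2. The gene of MT-TV, the valine tRNA, lies between those of the 2 rRNAs. The sources used here do not say whether the libraries were selected for poly(A) or depleted of rRNA, so the rRNA levels are levels of what the preparation kept.

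The mRNAs of complex IV, cytochrome c oxidase, were the most abundant per length. MT-CO1, the subunit with the catalytic centre, had 666, 588 and 748 CPM in the controls and 1362, 567 and 1384 in the bile acid libraries. Bile acid 1 and 3 stood at the top and bile acid 2 just below the lowest control. Its log2 fold change was 0.73 (SE 0.35, adjusted p = 0.911, edgeR), and its unadjusted p of 0.076 was the lowest of the mRNAs. MT-CO2, which takes electrons from cytochrome c, had 247, 490.5 and 326 CPM in the controls and 577, 269 and 596 in the bile acid libraries. MT-CO3, a core subunit without a redox centre, had 313, 651 and 352 CPM in the controls and 675, 296 and 649.9 in the bile acid libraries. In both, control 2 stood with bile acid 1 and 3, and bile acid 2 with controls 1 and 3. Their log2 fold changes of 0.44 (SE 0.38) and 0.30 (SE 0.40) were 0.76 and 0.71 without control 2, more than 1.5 times as large. They were then the 2 mitochondrial genes with an unadjusted p under 0.05, against 7.98% of genes, and 0 of the mitochondrial genes passed after adjustment (lowest adjusted p 0.565, background 0.00547%).

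Complex I, NADH dehydrogenase, takes 7 of its subunits from this genome, and its mRNAs summed to 1164, 454 and 1194 CPM in the controls and 2312, 658 and 1877 in the bile acid libraries. In both groups the library numbered 2 was the lowest. MT-ND4, a subunit of the proton-pumping arm, had 426, 123 and 458 CPM in the controls and 960.0, 267 and 812 in the bile acid libraries. Its log2 fold change was 1.02 (SE 0.60, adjusted p = 0.911, edgeR) with all libraries and 0.63 without control 2. MT-ND4L, the short subunit whose gene ends inside MT-ND4 in the overlap shown above, had 2229, 26 and 2291 counts in the controls and 5625, 815 and 4416 in the bile acid libraries. It had the highest log2 fold change of the mRNAs, 1.10, and the largest error, an SE of 1.18, since control 2 held so few counts. Without control 2 it was 0.54. The subunits MT-ND1, MT-ND2, MT-ND3 and MT-ND5 had log2 fold changes of 0.45, 0.72, 0.28 and 0.81, and in each of the 4 the groups overlapped. Without control 2 these were 0.20, 0.39, 0.37 and 0.44, and that of MT-ND1 was 0.06 without bile acid 1.

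MT-ND6, another subunit of complex I, is the only mRNA gene on the minus strand, and its RNA holds 35.6% G, against 6.28% to 16.2% in the other 12. It had 45.1, 23.3 and 29.6 CPM in the controls and 71.4, 23.8 and 69.0 in the bile acid libraries, so it stood high in bile acid 1 and 3 like the mRNAs of the other strand. Its log2 fold change was 0.74 (SE 0.44). Its counts were 1.71%, 1.00% and 1.02% of those of the other 12 mRNAs in the controls and 1.30%, 1.22% and 1.41% in the bile acid libraries. The bile acid values all lay inside the control range (exact permutation p = 1, n = 3 each). Without strand in the counting, its reads cannot be told from antisense RNA of the region.

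Complex III takes 1 subunit from this genome, cytochrome b (MT-CYB). It had 126, 79.0 and 139 CPM in the controls and 302, 71.2 and 188 in the bile acid libraries, a log2 fold change of 0.71 (SE 0.49). Without bile acid 1 this was 0.18, and without bile acid 2 it was 1.11. Bile acid 1 stood highest and bile acid 2 lowest of all 6 libraries. MT-ATP6, the subunit of ATP synthase through which protons pass, had 169, 83.7 and 163 CPM in the controls and 348, 101 and 272 in the bile acid libraries. Its log2 fold change was 0.79 (SE 0.47), and 0.54 without control 2. MT-ATP8, the small subunit that shares the 46 bases with it, had 4.24, 0.504 and 3.24 CPM and 8.67, 1.97 and 5.81 CPM in the same order. For both, bile acid 1 and 3 were the highest and control 2 the lowest.

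**Figure D2:**
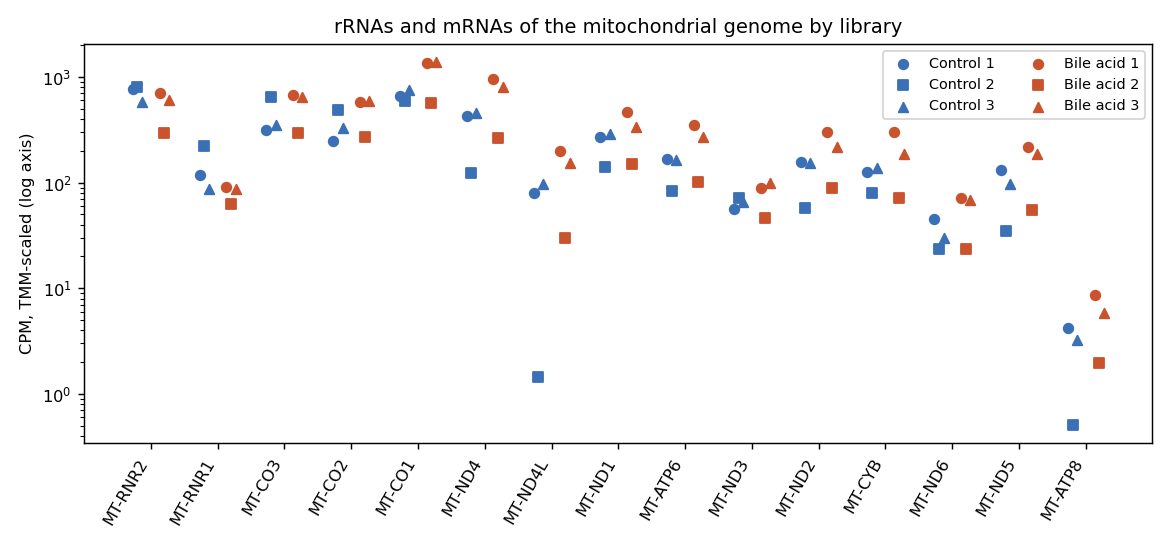
Level of each of the 13 mRNAs and 2 rRNAs (TMM-scaled CPM, log axis) in every library, with controls in blue, bile acid libraries in orange and the marker giving the library number. Bile acid 1 and 3 lie above the 3 controls for most mRNAs, while bile acid 2 lies among or below the controls for every gene shown.

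Across the mRNAs, leaving out a library changed the size of the differences more than their direction. Without control 2, all 13 log2 fold changes were still positive, with a median of 0.54 (0.20 to 0.76). Against the fit of all libraries, 6 of the 13 were then over 1.5 times smaller and 2 larger. Without bile acid 1 the median was 0.43 (0.06 to 0.69) and 9 were smaller by that much, and without bile acid 2 it was 1.11 (0.56 to 1.57) and 7 were larger. Without bile acid 3, 3 were smaller (MT-CO2, MT-CO3 and MT-ND3). Without control 1, MT-CO2 and MT-CO3 were smaller and MT-ND5 larger, and without control 3, MT-CO3 was smaller and MT-ND4L larger. All 13 were positive in each of these 6 settings, and 0 passed. Without both libraries numbered 2, a setting added after the data were seen, the median was 0.92 (0.54 to 1.04) and 7 of the 13 mRNAs passed (MT-CO1, MT-CO2, MT-CO3, MT-ND4, MT-ND4L, MT-ND5 and MT-ATP6, adjusted p 0.0157 to 0.048, edgeR), where 0.828% of all tested genes were called and 0.756% were called higher. Bile acid 2 was the lowest of its group for all 13 mRNAs, and without bile acid 2 alone, or control 2 alone, 0 passed. The 7 calls thus appear only when both are left out, which removes the lowest bile acid value of each mRNA.

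**Figure D3:**
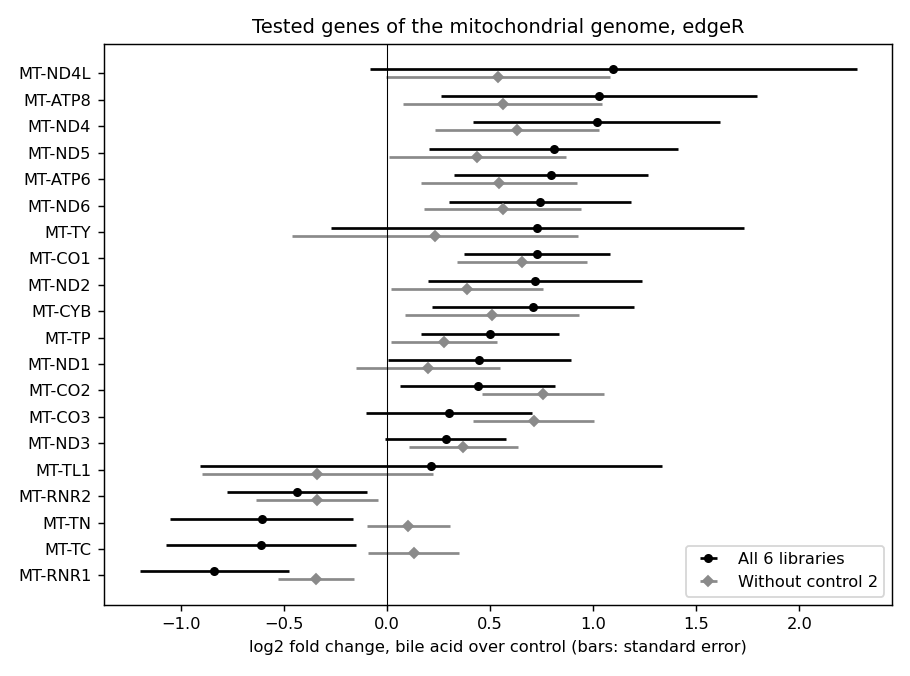
edgeR log2 fold change, bile acid over control, of the 20 tested mitochondrial genes with its standard error as a bar, with all 6 libraries (black) and without control 2 (grey). The 13 mRNAs lie above 0 in both, and MT-TN and MT-TC lie at -0.61 with all libraries and at 0.10 and 0.13 without control 2.

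Of the 22 tRNAs, 17 were not tested, with at most 22 counts in any library and a mean of at most 8. By counts, MT-TN had 500, 867 and 366 in the controls and 397, 548 and 561 in the bile acid libraries. MT-TC had 518, 865 and 323 in the controls and 391, 492 and 598 in the bile acid libraries. These neighbours tracked each other, with 0.883 to 1.07 counts of MT-TC per count of MT-TN, whereas MT-TA, 1 base away from MT-TN, never had more than 1 count. Control 2 was the highest library for both, and their log2 fold changes of -0.61 turned to 0.10 and 0.13 without it. Together the tRNAs took 0.00506%, 0.00859% and 0.00409% of the counts in the controls and 0.00405%, 0.00451% and 0.00545% in the bile acid libraries (exact permutation p = 0.6, n = 3 each).

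On TMM-scaled CPM, MT-TP, the proline tRNA, was the 1 tested mitochondrial gene of 20 whose groups did not overlap. Of all tested genes, 10.2% had groups that did not overlap, 5.29% with the bile acid libraries above. MT-TP had 5.10, 2.69 and 4.86 CPM in the controls and 5.35, 5.15 and 7.44 in the bile acid libraries. The gap between the groups was narrow. In the deposited FPKM (levels scaled by gene length and library size) they overlapped, with 65.7 in control 1 and 64.5 in bile acid 2. The log2 fold change of MT-TP was 0.50 (SE 0.33, adjusted p = 0.911, edgeR), or 0.27 without control 2 and 0.32 without bile acid 3. MT-TL1, the tRNA for leucine that follows MT-RNR2, had 0 counts in control 2, which allows up to 0.168 CPM on the same TMM scale, and 2.01 and 2.43 CPM in controls 1 and 3. The bile acid libraries held 3.07, 0.512 and 1.63 CPM of it. MT-TY, the tyrosine tRNA, had 1.87, 0.112 and 1.07 CPM in the controls and 2.39, 0.256 and 2.50 CPM in the bile acid libraries. In both of these tRNAs the libraries numbered 2 were the lowest of their group. The levels of tRNAs rest on what short and heavily modified RNAs leave in such libraries.

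Levels can be compared between genes only per length, and the order of the mRNAs in the deposited FPKM (fragments scaled by gene length and by library size) was steep. Over the 6 libraries MT-CO3 averaged 535 FPKM, MT-CO2 523 and MT-CO1 493. These 3 could not be ordered, since MT-CO3 exceeded MT-CO2 in 3 libraries and MT-CO2 exceeded MT-CO1 in 2. MT-CO1 exceeded MT-ND4, at 316 FPKM, in all 6, and MT-ND4 exceeded MT-ND4L, at 271 FPKM, in all 6. MT-ND4L, MT-ND1 (248) and MT-ATP6 (239) followed without a fixed order. MT-ATP6 exceeded MT-ND3 (177), MT-ND3 exceeded MT-ND2 (134) and MT-ND2 exceeded MT-CYB (114) in 5 libraries each. MT-CYB, MT-ND6 (71.5), MT-ND5 (57.4) and MT-ATP8 (16.9) kept that order among themselves in all 6, but in control 2 MT-ND4L, listed at 4.17 FPKM, was below the first 3 of them. MT-ATP8 lies on 1 RNA with MT-ATP6, and reads over their shared bases can bear on the level of both.

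The libraries numbered 2 departed from the others in different ways. In control 2, relative to the mean log2 level of controls 1 and 3, MT-ND4L was at -5.85, MT-ATP8 at -2.70, MT-ND4 at -1.84, MT-ND5 at -1.70 and MT-ND2 at -1.43. MT-CO1 was at -0.26, while MT-CO2 was at 0.79, MT-CO3 at 0.97, MT-RNR1 at 1.15, MT-TN at 1.53 and MT-TC at 1.59. Mitochondrial RNAs thus moved both ways within that library. In bile acid 2, relative to bile acid 1 and 3, all 13 mRNAs were lower, from -1.01 to -2.56 with a median of -1.56, and MT-RNR2 was at -1.14. MT-RNR1 was at -0.48, and MT-TN and MT-TC were at 0.27 and 0.08. In control 2 the counts of MT-CO3 were 7.79 times those of MT-ATP6, against 1.85 to 2.94 times in the other libraries. MT-ND4L had 1.18% of the counts of MT-ND4 there, against 11.2% in bile acid 2 and 18.8% to 21.3% in the other 4. Over the 13 mRNAs the Spearman correlation of this relative level with gene length was 0.0824 in control 2 and -0.00549 in bile acid 2, so no trend with length was seen. It was -0.51 and -0.55 only after MT-ND4L and MT-ATP8, the 2 shortest and lowest in control 2, were left out, and -0.33 and -0.35 over all tested genes. These are correlations across genes, which share their libraries and are no replicates. What part length, RNA quality or library preparation had in these departures was not tested.

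**Figure D4:**
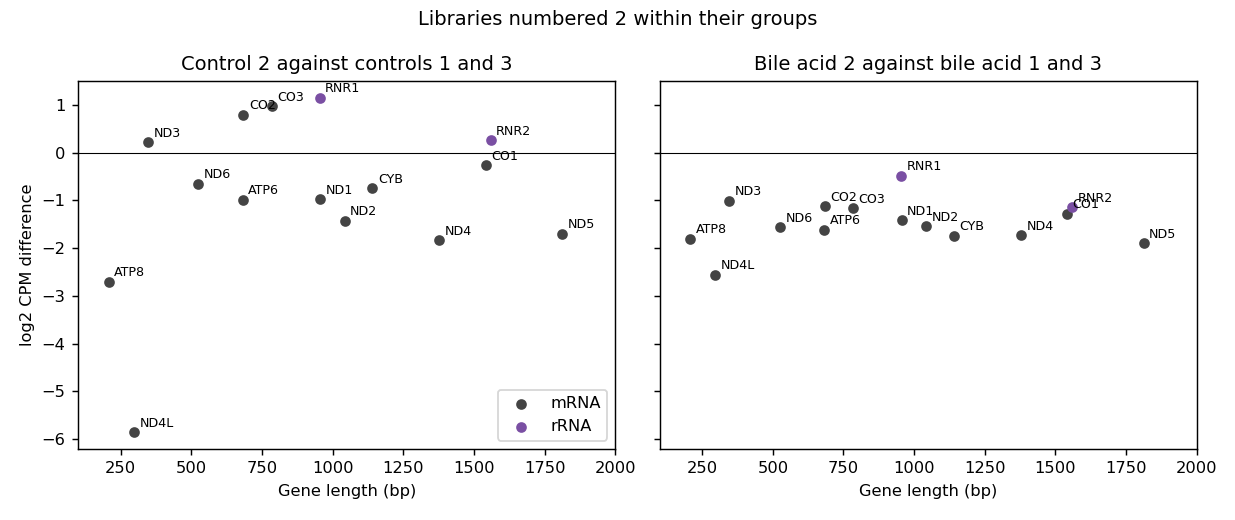
Difference in log2 CPM between control 2 and controls 1 and 3 (left) and between bile acid 2 and bile acid 1 and 3 (right) against gene length in bp, 1 point per mRNA (dark) or rRNA (purple), without tRNAs. On the left the mRNAs spread from -5.85 for MT-ND4L to 0.97 for MT-CO3, and on the right all 13 lie below 0, from -2.56 to -1.01.

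Nuclear DNA holds many old copies of mitochondrial sequence, into which reads can be counted. Of 407 table rows named for such copies, 30 had any count and 3 were tested, and together they held 116 to 1410 counts, 0.187% to 0.783% of the mitochondrial counts. The most counted were MTATP6P1 and MTND2P28 on chromosome 1. MTATP6P1, a pseudogene at chr1:633696-634376 on the plus strand, is 98.5% identical to MT-ATP6, with 10 differing bases. The first 100 bases of both are shown because they differ at 1 base, in capitals, G19A, counted from the first base of MT-ATP6 with its base first.
MT-ATP6, plus strand, chrM:8527-8626: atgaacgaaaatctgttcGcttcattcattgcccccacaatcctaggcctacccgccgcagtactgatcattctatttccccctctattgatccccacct
MTATP6P1, plus strand, chr1:633696-633795: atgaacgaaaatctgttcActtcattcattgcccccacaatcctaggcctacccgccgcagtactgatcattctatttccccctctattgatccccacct

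The longest stretch without a difference between them is 141 bases, just under the 150 bp of a read. MTATP6P1 had 331, 53 and 242 counts in the controls and 618, 163 and 434 in the bile acid libraries, or 7.05%, 3.55% and 6.31% and then 6.33%, 5.91% and 5.54% of those of MT-ATP6. Its log2 fold change, 0.77, was close to that of MT-ATP6. MTND2P28, 98.4% identical to MT-ND2, had 7.23%, 1.74% and 7.27% of the counts of MT-ND2 in the controls and 7.42%, 5.01% and 6.67% in the bile acid libraries. The longest stretch without a difference between MTND2P28 and MT-ND2 is 266 bases, longer than a read. The copies were lowest in the libraries numbered 2, as their mitochondrial partners were. How reads that fit both places were counted is unknown, so the counts of these copies, and to a lesser extent those of MT-ATP6 and MT-ND2, are uncertain. MTCO1P12 (98.6% identical to MT-CO1) and MTCO3P12 (98.2% identical to MT-CO3) were the next most counted. MTCO1P12 had 64, 32 and 44 counts in the controls and 128, 57 and 147 in the bile acid libraries. These were 0.251% to 0.369% of the counts of MT-CO1. The longest stretch without a difference between MTCO1P12 and MT-CO1 is 245 bases, also longer than a read, so the counts of MTCO1P12 are uncertain too.

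The nuclear genes that serve this genome were counted in 8 lists, and 0 members of any list passed edgeR's test (background 0%). Of 12 tested genes of mitochondrial transcription, 4 had a positive log2 fold change and 8 a negative one, with a median of -0.17, which was 0.01 without control 2. POLRMT, the mitochondrial RNA polymerase, averaged 93.8 CPM ± 17.2 in the controls and 81.7 ± 0.348 in the bile acid libraries (SD, n = 3, here and for the genes below). TFAM, which packs the DNA and acts at its promoters, averaged 139.9 ± 34.6 and 151 ± 14.5 CPM, a log2 fold change of 0.11 that was -0.07 without control 2. TFB2M, a promoter-melting factor, averaged 20.1 ± 3.99 and 20.6 ± 1.31 CPM, and TEFM, the elongation factor, 11.1 ± 0.135 and 11.8 ± 1.54 CPM. The values of these factors in the bile acid cells were close to those in the controls, but the test does not show that they were the same.

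Of 33 genes of mitochondrial RNA processing and decay, 14 were positive and 19 negative, with a median of -0.03, or 0.09 without control 2. LRPPRC, which with SLIRP stabilises the mRNAs, averaged 168 ± 19.4 and 192 ± 19.8 CPM, a log2 fold change of 0.20. SLIRP itself averaged 93.4 ± 76.5 CPM in the controls and 55.7 ± 8.43 CPM in the bile acid libraries. Control 2 alone held 182 CPM of it. The log2 fold change was -0.74 with control 2 and 0.19 when it was left out. ELAC2, which cuts the 3′ end of tRNAs, averaged 90.8 ± 2.81 and 96.2 ± 2.56 CPM. PNPT1 and SUPV3L1, the nuclease and helicase of mitochondrial RNA decay, averaged 54.6 ± 11.2 against 67.1 ± 18.4 CPM and 52.2 ± 11.6 against 48.9 ± 1.35 CPM. The log2 fold change of SUPV3L1, -0.10, was 0.11 without control 2. Of 18 genes of DNA replication and the nucleoid, 7 were positive and 11 negative (median -0.12, or 0.01 without control 2). POLG, the DNA polymerase, averaged 125 ± 55.5 and 145 ± 10.7 CPM, a log2 fold change of 0.22 that was -0.09 without control 2. SSBP1, the single-strand binding protein, had a log2 fold change of -0.35, and of 0.15 without control 2.

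Of 12 regulators of mitochondrial biogenesis, 7 were positive and 5 negative (median 0.08, or -0.07 without control 2). PPARGC1A, the coactivator of that programme, had 1.73, 1.57 and 1.87 CPM in the controls and 1.07, 0.804 and 1.04 in the bile acid libraries. Its groups did not overlap, with a log2 fold change of -0.82, as was true of 4.89% of tested genes in that direction, and it did not pass the test. NRF1, a transcription factor for nuclear genes of the respiratory chain, had a log2 fold change of -0.28. MYC, a transcription factor with targets in growth and mitochondrial biogenesis, was named after its values were seen, as the 1 list member that DESeq2 called (adjusted p = 0.045, background 0.0451%). It had 42.5, 30.8 and 28.7 CPM in the controls and 107, 58.9 and 92.1 in the bile acid libraries. The groups did not overlap, as was true of 5.29% of tested genes in that direction, and edgeR's adjusted p for MYC was 0.911. In edgeR, 2 of the 12 regulators had an unadjusted p under 0.05, against 3.31% of all tested genes. They went opposite ways, MYC with a log2 fold change of 1.34 and ESRRG, another regulator of the list, with -1.70.

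The nuclear partners of the mitochondrial mRNAs had negative fold changes that rested on control 2. Of 37 nuclear subunits of complex I, 5 were positive and 32 negative, with a median of -0.46. Of 21 of complexes III and IV, 1 was positive and 20 negative (median -0.45), and of 16 of ATP synthase, 3 were positive and 13 negative (median -0.40). Without control 2 these medians were 0.09, 0.22 and 0.22, since the median members stood 1.03 to 1.13 above their mean over the libraries there on the log2 scale. The 15 assembly factors of complex IV behaved alike, with a median of -0.46 and of 0.03 without control 2. Among them TACO1, the translational activator of MT-CO1, averaged 85.4 ± 53.4 and 56.7 ± 5.73 CPM, with a log2 fold change of -0.59 that was 0.07 without control 2. In that library the mRNAs of MT-ND4 and MT-ND4L were low while the nuclear subunits of the same complex were high.

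**Figure D5:**
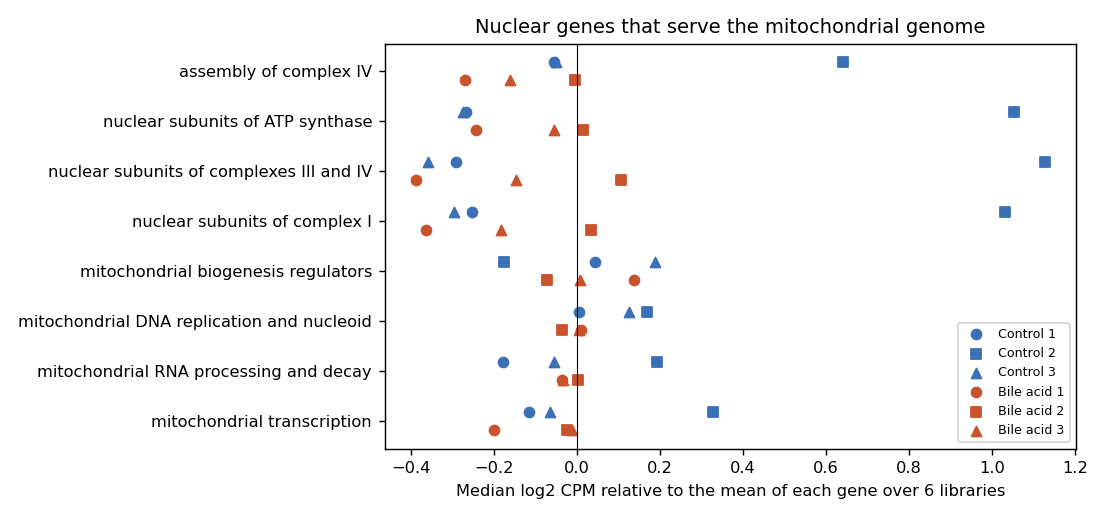
Median log2 CPM of each list of nuclear genes in every library, relative to each gene's mean over the 6 libraries, with controls in blue, bile acid libraries in orange and the marker giving the library number. Control 2 stands at 1.03 to 1.13 on the 3 lists of nuclear subunits, to the right of the other 5 libraries.

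The authors' deposited table of single genes gave the 13 mRNAs log2 fold changes of 0.30 to 1.11, with an adjusted p of 0.977 for each. The authors' deposited table of Gene Ontology terms gave the term for mitochondrial gene expression a normalized enrichment score of -2.28 (adjusted p = 5.12e-09) and oxidative phosphorylation -1.92 (adjusted p = 7.51e-05). Of the genes that table lists as driving either term, 0 were genes of the mitochondrial genome. Both scores were negative and the log2 fold changes of the 13 mRNAs positive, so this 0 adds little to their sign. The authors' normalized counts hold all 6 libraries, control 2 included, and the negative medians of the nuclear subunits counted above were positive without it. Whether the scores of the Gene Ontology terms change without control 2 was not tested.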

How the data were processed

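The 6 Het1A libraries were read as 150 bp pairs, per the labels' protocols. The submitters' processing notes list GRCh38, HISAT2 2.0.5, featureCounts and DESeq2 but not what each was used for. The authors deposited raw read counts per gene, FPKM per gene, and normalized counts, a signal equal to whole reads over 1 size factor per library (100% whole within 0.001). The authors also deposited a comparison with log2 fold changes and p-values in the layout of DESeq2. The deposited table of Gene Ontology terms holds enrichment scores, p-values and, as other values, term sizes. A further 2 columns of the deposited FPKM means match no sample and were not used.

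Members were rows with chromosome MT. Counts were tested with edgeR 4.0.16 (R 4.3.3; quasi-likelihood, TMM, filterByExpr, Benjamini-Hochberg over all tested genes, calls at an adjusted p under 0.05), with the 3 libraries of each group and no covariate. The SE is the log2 fold change over the root of F. Shares were compared by exact two-sided permutation (scipy 1.17.1). Alternatives were DESeq2 1.42.0, limma 3.58.1 on log2(FPKM + 1) and log2(FPKM + 0.1), other scalings and filters, a replicate block and each library left out. Sequences of copies were aligned with Biopython 1.88. The models were tested on simulated data.

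The members, lists, tests and alternatives were chosen with earlier results of these data known. Named were all mRNAs and rRNAs, tRNAs with a mean of at least 50 counts, 14 fixed nuclear genes, called list members and the 4 most counted nuclear copies. MT-TA, MT-TL1, MT-TY, ESRRG and the ratios of single genes were chosen after their values were seen. Of 164 list symbols 163 were found. Counts of 21006677 to 28497721 per library put the floor of 3 counts at 0.104 to 0.168 TMM-scaled CPM, for counting error only.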

Additional observations from a re-analysis of the deposited data

How the results depend on the processing

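The directions of the log2 fold changes of the 13 mRNAs, both rRNAs and MT-TP held under every alternative run, and those of MT-TN and MT-TC did not. Of the values of single members under the alternatives, 293 kept direction and call, 7 gained a call and 6 changed sign. MT-TN turned to 0.10 and MT-TC to 0.13 without control 2 (0.10 and 0.13 also with DESeq2), and to 0.013 and 0.11 without both libraries numbered 2; with 1 library left out they ranged from -0.88 to 0.10 and from -0.92 to 0.13. The 7 gained calls are those of MT-CO1, MT-CO2, MT-CO3, MT-ND4, MT-ND4L, MT-ND5 and MT-ATP6 without both libraries numbered 2, where 149 genes passed in all. Over all genes edgeR called 0, DESeq2 14, edgeR without control 2 called 1 (0 to 1 with any library left out) and DESeq2 without control 2 called 148. Of nuclear list members, DESeq2 called 1, as did DESeq2 without control 2 and edgeR without both libraries numbered 2; it was MYC each time. The number of mitochondrial genes whose groups did not overlap was 0 on both FPKM scales and on the reads of the second counting, 15 without both libraries numbered 2, and 1 to 15 with a library left out (15 without bile acid 2, 3 without control 3, 2 without bile acid 1), where 43.4% of all genes did the same without both libraries numbered 2, 26.3% without bile acid 2, 20.0% without control 3 and 15.2% without bile acid 1. The tRNA share changed sign to 9.54e-05 percentage points without control 2 and 0.000176 without both libraries numbered 2 (-0.00216 to 9.54e-05 with 1 library left out). The percent of MT-ND6 over the other mRNAs changed sign to -0.0558 without control 2, -0.0459 without control 3 and -0.0134 without both libraries numbered 2 (-0.0558 to 0.297 with 1 left out), and that of MT-RNR1 over MT-RNR2 to 1.16 without control 2 (-5.71 to 1.16 with 1 left out). The cause of these changes was not tested beyond the libraries named. Of the medians of the 8 nuclear lists under the alternatives, 119 moved by less than the spread between libraries and 17 by more.

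Whether the replicate numbers pair the libraries cannot be decided from so few correlations. Deviations of same-numbered libraries correlated at 0.307, 0.382 and 0.0979, and those of other numbers at -0.413 to 0.189. Controls 1 and 2 correlated best with the bile acid library of their own number, and control 3 with bile acid 1 (0.189). With a replicate block edgeR called 0 genes. At an unadjusted p under 0.05 there were then 7 of the 20 tested mitochondrial genes, against 1109 of all 17743 tested genes. With the block the ratio of rRNA to mRNA had an exact permutation p of 0.25, the smallest that 3 pairs can give. Low counts limit the 17 untested tRNAs, MT-TL1 and MT-TY. Control 2 held 26 counts of MT-ND4L against 2291 in control 3, at similar totals of 21006677 and 21981806.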
